A study of Mus musculus with 12 samples.

Results

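The collagen genes were described here as a family: every gene whose symbol on the array platform was Col, a number, a and a number. There were 42 of them among 18193 genes with a probe set of their own. A gene with several probe sets was read from the one whose mean over the 12 arrays was highest, which applied to 27 of the 42. That choice used a level over all groups and no difference between groups. RefSeq lists Col28a1 and Col6a6 as well, for which no single-gene probe set was found.

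Collagens are proteins, most of them secreted, in which alpha chains wind around each other into a stiff helix. They fall into classes by what the finished molecules build. Fibrillar collagens form the cables of interstitial matrix, type IV collagens form the sheet-like scaffold of basement membranes, and type VI collagens form beaded filaments that link cells to both. Fibril-associated, short-chain, transmembrane and multiplexin collagens decorate fibrils, build lattices, sit in the cell membrane or attach to basement membranes. In the gonad, type IV collagen lines the basement membrane that forms around testis cords, and fibrillar collagen fills the interstitium and the wall of vessels.

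The arrays were made from mouse gonads at E11.5, about the time at which the early gonad begins to take the testis or the ovary path. Cbx2 encodes a chromobox subunit of Polycomb repressive complex 1, which holds developmental genes silent, and the design asks how its loss alters expression in each sex. There were 4 groups of 3 arrays each: embryos with XX chromosomes and wild-type Cbx2 (WT XX), XX embryos with Cbx2 knocked out (KO XX), and the same pair of genotypes in XY embryos (WT XY and KO XY). All embryos came from heterozygous parents and were staged by counting tail somites. Cells were laser-captured from frozen sections 30 µm thick, with GATA4 staining and tissue shape as the guide. Each array held the RNA of 2 to 3 embryos, so p-values rest on the spread between pools. The knockout was carried by the embryo as a whole and was not restricted to a cell type by anything in the labels. In bulk material such as this, fewer cells of a type and less RNA per cell cannot be told apart.

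Levels are log2 values, on which a difference of 1 is a 2-fold change. A level belongs to its probe set, so levels are compared between groups and never between genes. The source description of the WT arrays names the KO XX group, against their titles and genotype field, which were followed here. The brighter Cbx2 probe set read from 9.27 to 9.58 in the KO arrays and from 8.46 to 9.04 in the WT arrays, so its RNA was not lower in the KO; the labels do not say what the allele removes, so this probe set does not test the genotype. All 12 arrays matched the sex of their labels. Replicate 1 of WT XX stood apart, with a mean correlation of 0.988 with its own group and 0.995 with the WT XY arrays. The Gapdh 3′ minus 5′ control difference, which rises as RNA or its copies shorten, was 4.91 ± 0.12 (SD, n = 3) in KO XY and 4.13 ± 0.38 in WT XY. That difference of 0.79 had an exact permutation p of 0.1, the smallest that 3 against 3 arrays allow. In XX it was 4.05 ± 0.22 in KO and 4.30 ± 0.45 in WT.

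The captured cells carried gonadal markers in all groups, though not equally. The mean level of 6 markers of gonadal somatic cells lay between 10.68 and 10.97 in the WT arrays and between 9.96 and 10.42 in the KO arrays. Over both sexes, 3 of the 6 fell and 1 rose: the nuclear receptor gene Nr5a1 fell by 2.19 ± 0.12 on the log2 scale and Lhx9 by 1.08 ± 0.12. Gata4 fell by 1.45 ± 0.12, but GATA4 staining guided the capture, so its level is not an independent result. Tcf21, which also counts as a mesenchymal marker, was the gene that rose, by 0.76 ± 0.12. Over both sexes, 10.3% of all genes fell and 13.4% rose in the limma test described below.

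Collagen expression differed between KO and WT gonads in both sexes, and more genes rose than fell. In XY, 13 collagen genes were higher and 4 lower in KO, 40.5% of the 42, whereas 13.3% of all genes passed the same test. Of all genes, 6.56% were higher and 6.75% lower. With the Gapdh control difference of each array as a covariate, 7 collagen genes were higher and 2 lower in XY, with 4.29% of all genes passing. In XX, 17 were higher and 5 lower, 52.4% against 13.7% of all genes (8.30% higher, 5.40% lower). Averaged over both sexes, 19 were higher and 7 lower, 61.9% against 23.8% of all genes (13.4% higher, 10.3% lower). A gene passed at a limma adjusted p under 0.05, with Benjamini-Hochberg adjustment over all 18193 genes and two-sided tests.

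The median collagen difference was 0.23 for XY, 0.15 for XX and 0.17 for the sexes averaged, beside medians of 0.01, -0.02 and -0.01 for all genes. Differences of at least 2-fold were commoner upward: over both sexes 8 collagen genes rose and 1 fell by that much, against 1.52% and 1.79% of all genes. The arrays of KO and WT did not overlap for 25 collagen genes within XY, 22 within XX and 18 with the sexes together, against 36.9%, 26.6% and 11.2% of all genes. Of 29 collagen genes with a mean of at least 6, close to the array medians of 5.88 to 5.94, 22 passed over both sexes, against 32.4% of all genes at such levels. Of the 13 below, 4 passed, against 8.84% of all genes at such levels. The files give no detection calls, so how many of these 13 were above background is not known.

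The XX and XY lists overlapped. Of the collagen genes that passed in XY, 15 also passed in XX in the same direction, which is 88.2% of the XY list and 68.2% of the XX list, and none passed in opposite directions. Over all genes the shared calls were 63.6% of the XY list and 61.8% of the XX list. The sign of the difference was shared by 34 of the 42 collagen genes and by 67.2% of all genes. The XX and XY comparisons rest on different arrays, although the variance of each gene was estimated over all of them.

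**Figure D1:**
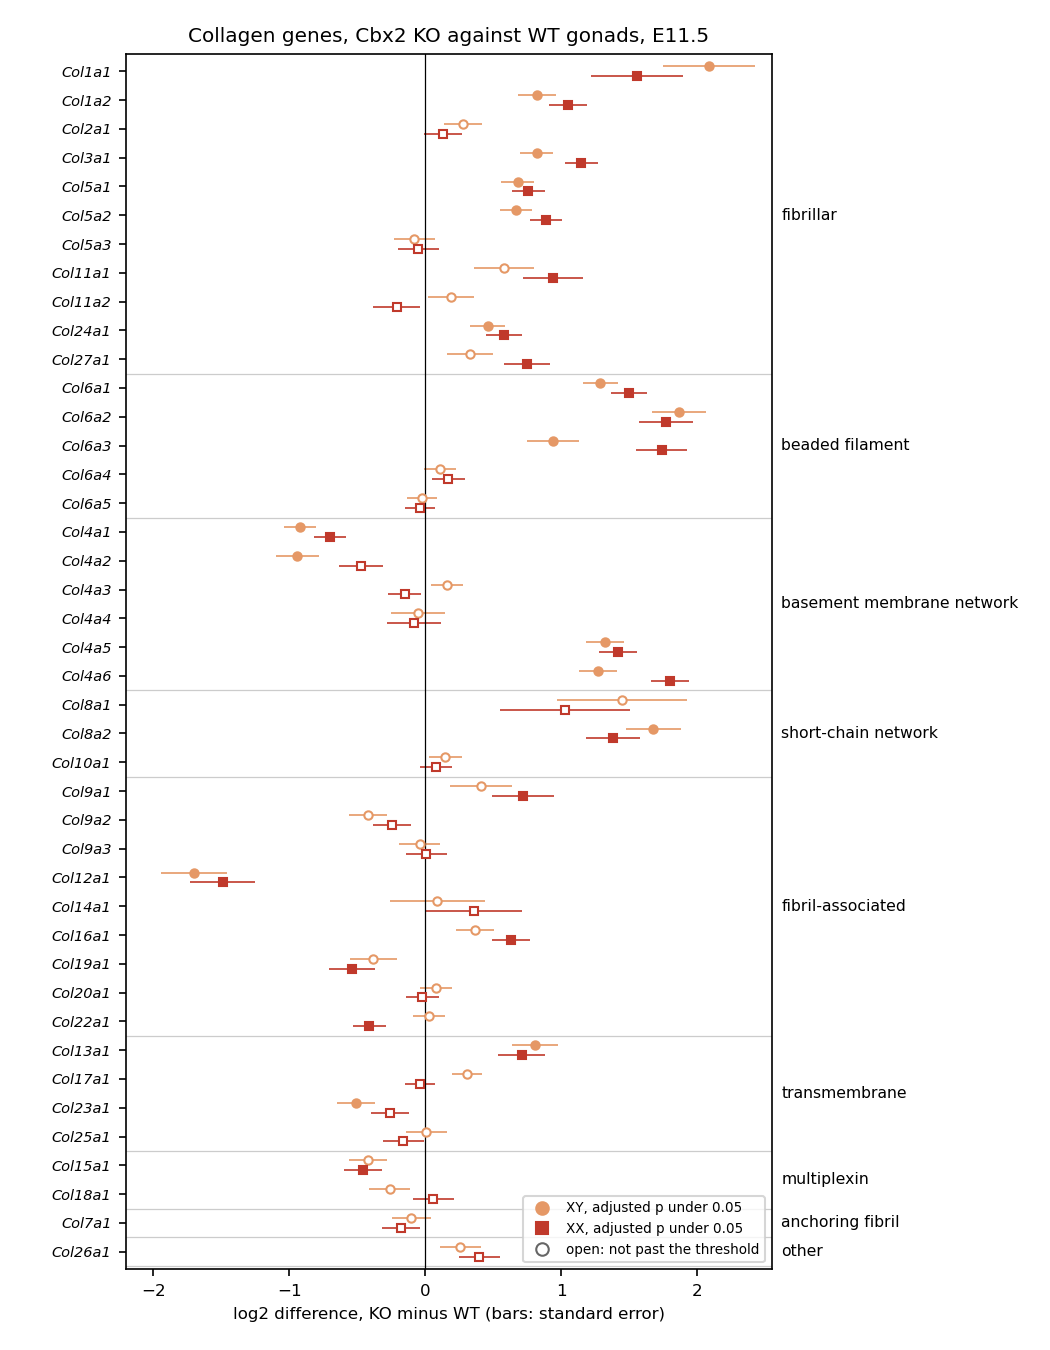
KO minus WT log2 difference of each of the 42 collagen genes in XY (circles) and XX (squares), grouped by class, with standard errors as bars and filled symbols for genes past the threshold. Fibrillar and beaded-filament genes that passed all lie to the right of 0, and the type IV genes lie on both sides, from -0.94 for Col4a2 in XY to 1.80 for Col4a6 in XX.

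Fibrillar collagen genes moved upward where they moved. Of 11, 6 rose in XY and 8 in XX and over both sexes, and none fell in any of these comparisons. With the Gapdh covariate 2 rose in XY. The median over both sexes was 0.72. Col1a1 and Col1a2 encode the chains of type I collagen, the main protein of most connective tissue. Col1a1 read 9.32, 11.06 and 11.03 in the WT XX pools, 12.32, 12.18 and 11.58 in KO XX, 9.93, 9.85 and 9.67 in WT XY and 11.78, 12.06 and 11.88 in KO XY. Every KO array lay above every WT array, but within WT XX replicate 1 was far below the other pair. The difference was 2.09 ± 0.34 (SE) in XY, a 4.25-fold rise with an adjusted p of 0.000760, and 1.56 ± 0.34 in XX, with an adjusted p of 0.00678. Without replicate 1 of WT XX the XX difference was 0.99, with an adjusted p of 0.00203. With the Gapdh difference of each array as a covariate the XY value was 1.15 and no longer passed (adjusted p = 0.122). A second probe set rose by less, 0.58 ± 0.17 in XY and 0.82 ± 0.17 in XX, and the mean of both probe sets rose by 1.33 in XY.

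Col1a2 read 10.32, 10.67 and 10.64 in the WT XX pools, 11.71, 11.55 and 11.51 in KO XX, 10.95, 10.67 and 10.51 in WT XY and 11.71, 11.36 and 11.51 in KO XY. The KO arrays again lay above all WT arrays. The rise was 0.82 ± 0.14 in XY and 1.05 ± 0.14 in XX, and 0.93 ± 0.10 over both sexes (adjusted p = 7.51e-06). With the Gapdh covariate the XY rise was 0.63 and lost the call (adjusted p = 0.113).

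Type III collagen, which mixes with type I in soft tissues and vessel walls, is built from Col3a1 alone. Col3a1 read 12.28, 12.60 and 12.53 in the WT XX pools, 13.65, 13.56 and 13.66 in KO XX, 12.74, 12.67 and 12.49 in WT XY and 13.54, 13.44 and 13.39 in KO XY. The KO and WT arrays were separated by more than the range within any group. It rose by 0.82 ± 0.12 in XY and 1.15 ± 0.12 in XX, 0.99 ± 0.08 over both sexes or 1.98-fold (adjusted p = 5.86e-07). A second probe set of the gene gave a rise of 1.39 ± 0.09.

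Type V collagen starts fibrils and limits their width. Col5a1 ranged from 9.77 to 10.17 over the WT arrays and from 10.64 to 10.87 over the KO arrays, and Col5a2 from 10.31 to 10.75 and from 11.20 to 11.45. The rise over both sexes was 0.72 ± 0.09 for Col5a1 and 0.78 ± 0.09 for Col5a2. In XY Col5a1 lost its call with the Gapdh covariate (0.46, adjusted p = 0.182), and Col5a2 kept it. The third type V gene, Col5a3, had a difference of -0.06 ± 0.10 over both sexes, with a 95% interval from -0.29 to 0.16, the lowest of the class.

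The remaining fibrillar genes gave smaller or less uniform values. Col11a1, a fibril-initiating chain best known from cartilage, rose by 0.94 ± 0.22 in XX, and its XY difference of 0.58 ± 0.22 did not pass (adjusted p = 0.103). A second probe set of it rose by 0.73 ± 0.15 in XY (adjusted p = 0.00513) and 0.51 ± 0.15 in XX. The XX call of the first was lost without replicate 2 of KO XX (0.71, adjusted p = 0.0537). Col27a1 rose by 0.75 ± 0.17 in XX, with 0.33 ± 0.17 in XY. Col24a1 rose in both sexes, by 0.52 ± 0.09 over the pair, at levels of 3.26 to 4.18. Its XY difference of 0.46 ± 0.13 was 0.52 with the Gapdh covariate, where the call was lost (adjusted p = 0.202). It was 0.41 to 0.47 without any of 4 single XY arrays (adjusted p from 0.0698 to 0.115).

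Col2a1 and Col11a2, whose proteins are typical of cartilage, did not pass. Their differences over both sexes were 0.21 ± 0.10 and -0.01 ± 0.12. A list of 10 other cartilage markers, among them Acan and Matn1, had a mean level of 5.46 to 5.55 in WT and 5.36 to 5.47 in KO arrays. Over both sexes 1 of them rose (Hapln1) and 1 fell (Sox5), which is 20.0% of the list against 23.8% of all genes.

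Type VI collagen is assembled from the products of Col6a1 and Col6a2 and one more chain, in most tissues that of Col6a3. Each of these 3 rose whichever sex was tested and over the pair, whereas Col6a4 and Col6a5 passed in none. Col6a1 read 8.19, 8.11 and 7.98 in the WT XX pools, 9.67, 9.55 and 9.57 in KO XX, 8.51, 8.26 and 8.17 in WT XY and 9.85, 9.36 and 9.59 in KO XY. No KO array came within the WT range. The rise was 1.29 ± 0.13 in XY and 1.50 ± 0.13 in XX, 2.63-fold over both sexes (adjusted p = 8.29e-08).

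Col6a2 read 9.33, 9.94 and 9.64 in the WT XX pools, 11.77, 11.30 and 11.12 in KO XX, 10.08, 9.68 and 9.53 in WT XY and 11.81, 11.42 and 11.66 in KO XY. The lowest KO array stood clear of the highest WT array. It rose by 1.87 ± 0.20 in XY and 1.77 ± 0.20 in XX, which is 3.52-fold over both sexes (adjusted p = 2.74e-07).

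Col6a3 read 8.42, 8.54 and 8.22 in the WT XX pools, 10.41, 10.06 and 9.92 in KO XX, 9.45, 8.88 and 8.76 in WT XY and 10.27, 9.72 and 9.93 in KO XY. Here the WT XY arrays lay above the WT XX arrays, while the KO arrays of both sexes shared a range. The rise was 0.94 ± 0.19 in XY (adjusted p = 0.00366) and 1.74 ± 0.19 in XX (adjusted p = 2.55e-05). The XY rise minus the XX rise was -0.79 ± 0.27, with a 95% interval from -1.37 to -0.22, which did not pass over all genes (adjusted p = 0.751). With the Gapdh covariate the XY rise was 0.98 and lost its call (adjusted p = 0.0713). The low-level chains Col6a4 and Col6a5, which can stand in for Col6a3, had differences of 0.14 ± 0.08 and -0.03 ± 0.08. A second probe set of Col6a4 went the other way, with a fall of 0.31 ± 0.10 (adjusted p = 0.0465 over all probe sets).

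**Figure D2:**
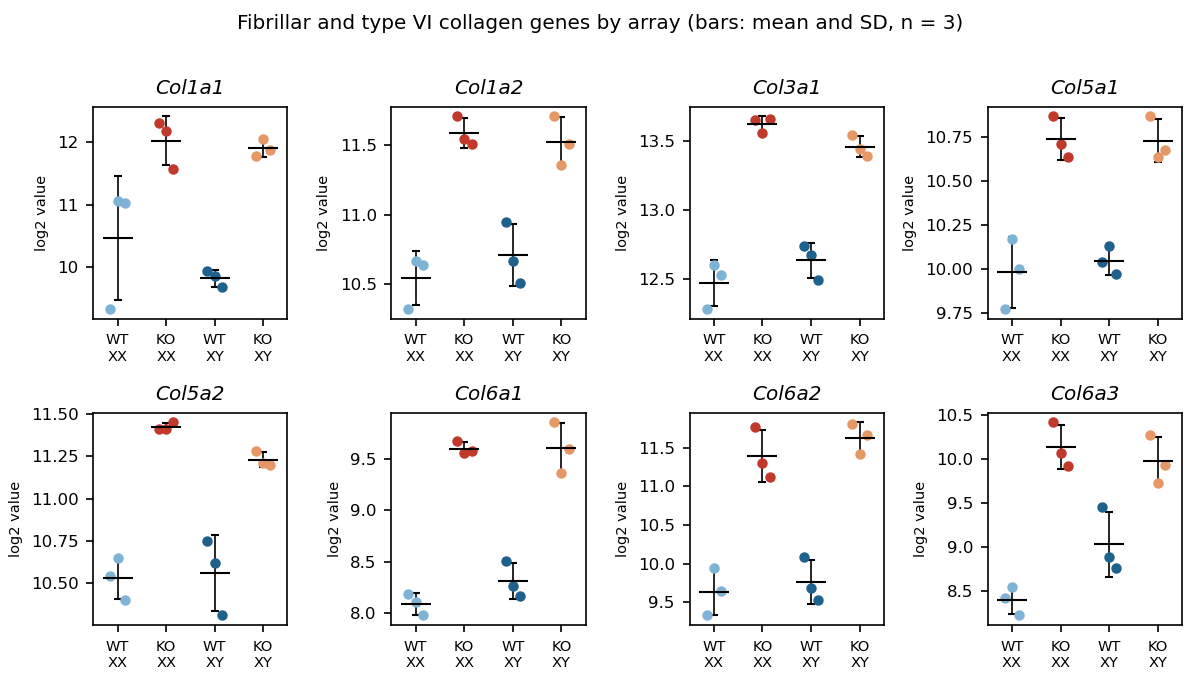
Log2 value of 5 fibrillar and 3 type VI collagen genes in each array, by group, with the group mean and SD as bars (n = 3 pools); each panel has its own scale, which does not start at 0. In every panel all 6 KO arrays lie above all 6 WT arrays, and in the Col1a1 panel replicate 1 of WT XX lies at 9.32, below the other arrays of its group.

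Type IV collagen showed both directions at once. Its 6 genes sit in head-to-head pairs that share a stretch of DNA between their starts: Col4a1 with Col4a2, Col4a3 with Col4a4, and Col4a5 with Col4a6. The Col4a1 and Col4a2 chains form the network found in nearly all basement membranes, including those of vessels, and the other chains form networks of more restricted tissues. Col4a1 and Col4a2 were lower in KO, Col4a5 and Col4a6 were higher, and Col4a3 and Col4a4 passed in neither direction. The stretch at the start of each gene in the pairs that changed is printed because these partners moved together. The windows are RefSeq promoter windows on GRCm38.p6, from 250 bases before to 50 bases after the annotated start, on the strand of the gene. Capitals mark a CCAAT box (CCAAT) or a GC box (GGGCGG), read on both strands.
Col4a1: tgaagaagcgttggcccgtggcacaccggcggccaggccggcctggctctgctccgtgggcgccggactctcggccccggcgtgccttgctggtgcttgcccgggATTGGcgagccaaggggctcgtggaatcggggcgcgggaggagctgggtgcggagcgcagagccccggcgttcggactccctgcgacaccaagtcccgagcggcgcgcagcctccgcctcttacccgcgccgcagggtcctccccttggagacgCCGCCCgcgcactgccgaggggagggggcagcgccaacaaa
Col4a2: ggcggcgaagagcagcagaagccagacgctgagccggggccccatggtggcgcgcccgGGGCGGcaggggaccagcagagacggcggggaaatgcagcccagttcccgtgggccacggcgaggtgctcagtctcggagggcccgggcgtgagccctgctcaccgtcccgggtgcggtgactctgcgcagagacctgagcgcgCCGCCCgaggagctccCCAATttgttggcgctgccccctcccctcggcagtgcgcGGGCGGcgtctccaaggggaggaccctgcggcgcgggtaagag
Col4a5: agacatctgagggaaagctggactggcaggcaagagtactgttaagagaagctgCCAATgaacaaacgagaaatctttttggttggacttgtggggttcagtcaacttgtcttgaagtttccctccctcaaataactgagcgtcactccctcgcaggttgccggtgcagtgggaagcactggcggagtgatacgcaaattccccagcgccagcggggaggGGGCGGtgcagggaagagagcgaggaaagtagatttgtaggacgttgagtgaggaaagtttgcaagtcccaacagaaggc
Col4a6: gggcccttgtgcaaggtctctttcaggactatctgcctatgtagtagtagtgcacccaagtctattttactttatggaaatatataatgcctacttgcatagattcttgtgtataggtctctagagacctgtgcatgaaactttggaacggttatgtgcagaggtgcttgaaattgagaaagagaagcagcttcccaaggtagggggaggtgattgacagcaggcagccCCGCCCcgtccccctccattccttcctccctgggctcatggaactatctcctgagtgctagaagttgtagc

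These windows are chr8:11312777-11313076 (minus strand) for Col4a1, chr8:11312555-11312854 (plus) for Col4a2, chrX:141475169-141475468 (plus) for Col4a5 and chrX:141474027-141474326 (minus) for Col4a6. The Col4a1 and Col4a2 starts are 21 bases apart, and their windows overlap by 78 bases. The Col4a5 and Col4a6 starts are 1343 bases apart, and their windows do not overlap. The pairs differ in base composition: CpG pairs numbered 37 and 33 in the Col4a1 and Col4a2 windows, against 11 and 3 in those of Col4a5 and Col4a6 and a median of 7 over all 32544 windows. G and C made up 74.0% and 73.7% of the former and 52.7% and 48.3% of the latter.

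A CCAAT box was found in all of these windows but that of Col4a6, and a GC box in each. The GC box of Col4a1 and the last one of Col4a2 are the same site, in the overlap of their windows. Of all windows, 37.4% held a CCAAT box and 35.9% a GC box. Among 36 windows of 33 collagen genes the counts were 13 and 22, and the shared site counts for both of its windows. A TATA box (TATAAA) occurred in 13.6% of all windows, a GATA site (AGATAA) in 11.2% and a site for Nr5a1 (CAAGGTCA) in 1.53%, and in 5, 2 and 2 of the collagen windows. None of the latter kinds was in the printed windows. A match is a description of letters only.

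Col4a1 read 10.97, 10.88 and 10.97 in the WT XX pools, 10.28, 10.16 and 10.30 in KO XX, 11.24, 10.99 and 11.11 in WT XY and 10.36, 9.98 and 10.25 in KO XY. All KO arrays were below all WT arrays. It fell by 0.92 ± 0.12 on the log2 scale in XY, 1.89-fold (adjusted p = 8.93e-05). In XX it fell by 0.70 ± 0.12, 1.62-fold (adjusted p = 0.000945). A second probe set fell by 0.71 ± 0.09 over both sexes.

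Col4a2 read 9.33, 8.80 and 8.86 in the WT XX pools, 8.43, 8.46 and 8.69 in KO XX, 9.45, 9.24 and 9.36 in WT XY and 8.65, 8.17 and 8.41 in KO XY. The arrays again separated by genotype, with replicate 1 of WT XX near the WT XY arrays. The gene fell by 0.94 ± 0.16 in XY (adjusted p = 0.000821) and by 0.70 ± 0.11 over both sexes (adjusted p = 0.000262). In XX the difference was -0.47 ± 0.16 and did not pass (adjusted p = 0.0624), and with the Gapdh covariate neither did that of XY (-0.63, adjusted p = 0.120).

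Col4a5 read 9.47, 10.08 and 9.78 in the WT XX pools, 11.21, 11.28 and 11.09 in KO XX, 9.75, 9.82 and 9.88 in WT XY and 11.16, 11.17 and 11.08 in KO XY. The gap between genotypes was wider than the whole WT range. The rise was 1.32 ± 0.14 in XY and 1.42 ± 0.14 in XX, 2.58-fold over both sexes (adjusted p = 1.18e-07). A second probe set rose by 1.14 ± 0.11.

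Col4a6 read 6.79, 6.71 and 6.41 in the WT XX pools, 8.59, 8.11 and 8.60 in KO XX, 6.87, 6.90 and 6.81 in WT XY and 8.15, 8.03 and 8.20 in KO XY. Among the collagen genes it had the smallest adjusted p over both sexes, 5.83e-08, for a rise of 1.53 ± 0.10 or 2.89-fold. The rise was 1.27 ± 0.14 in XY and 1.80 ± 0.14 in XX, and the difference between these did not pass over all genes (-0.53 ± 0.20, adjusted p = 0.755). Its second probe set rose by 0.73 ± 0.14.

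The gap between the pairs, a summary formed after their values were seen, restates these calls array by array. The mean of Col4a5 and Col4a6 minus the mean of Col4a1 and Col4a2, set relative to the WT average, lay between 1.98 and 2.37 in the 6 KO arrays and between -0.21 and 0.38 in the 6 WT arrays. The third pair stayed low, at 3.84 to 4.99 in all arrays. Its differences over both sexes were 0.00 ± 0.08 for Col4a3 and -0.06 ± 0.14 for Col4a4.

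**Figure D3:**
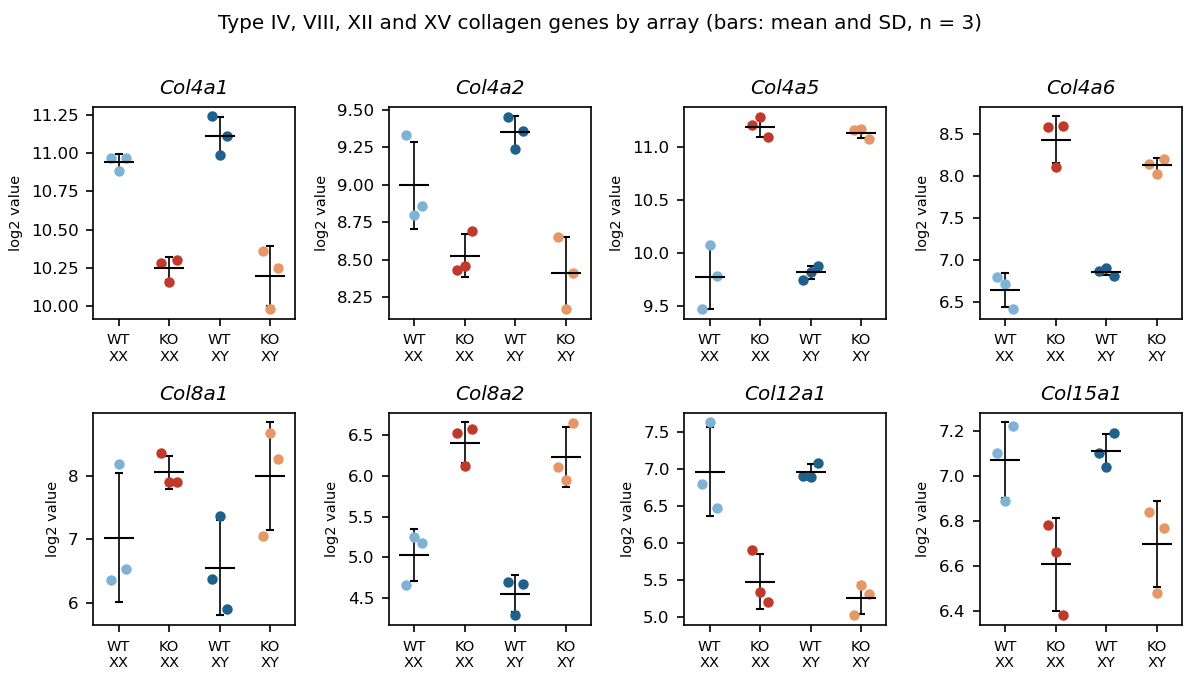
Log2 value of Col4a1, Col4a2, Col4a5, Col4a6, Col8a1, Col8a2, Col12a1 and Col15a1 in each array, by group, with the group mean and SD as bars (n = 3 pools); each panel has its own scale, which does not start at 0. Col4a1, Col4a2, Col12a1 and Col15a1 are lower in all KO than in all WT arrays, Col4a5, Col4a6 and Col8a2 are higher, and the Col8a1 arrays overlap.

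Short-chain collagens form open lattices. Col8a1 and Col8a2 encode the chains of type VIII collagen, found beneath vessel and other endothelia. Col8a2 read 4.66, 5.25 and 5.18 in the WT XX pools, 6.53, 6.12 and 6.57 in KO XX, 4.70, 4.29 and 4.68 in WT XY and 6.11, 5.95 and 6.65 in KO XY. Every KO array was above every WT array, and the rise was 1.68 ± 0.20 in XY and 1.38 ± 0.20 in XX, 2.89-fold over both sexes (adjusted p = 1.95e-06).

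Col8a1 read 6.36, 8.19 and 6.53 in the WT XX pools, 8.36, 7.90 and 7.90 in KO XX, 6.38, 7.37 and 5.90 in WT XY and 7.05, 8.67 and 8.27 in KO XY. The groups overlapped: replicate 1 of KO XY was below replicate 2 of WT XX and of WT XY. Its rise of 1.24 ± 0.34 passed over both sexes (adjusted p = 0.0150), but not with the Gapdh covariate (1.01, adjusted p = 0.0659), and neither 1.45 ± 0.48 in XY nor 1.03 ± 0.48 in XX passed. Other probe sets of Col8a1 gave 0.13 ± 0.09 and -0.01 ± 0.08. Col10a1, the collagen of cartilage that turns to bone, had a difference of 0.12 ± 0.09.

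Fibril-associated collagens, which attach to fibrils without forming them, had no common direction. Of 9, 1 passed in XY, a fall, which is 11.1% against 13.3% of all genes. In XX 2 rose and 3 fell, 55.6% against 13.7% of all genes, and without replicate 1 of WT XX 1 rose and 2 fell. Over both sexes 2 rose and 3 fell, with Col9a2 in place of Col22a1 among the latter. That is 55.6% against 23.8% of all genes. Col12a1, which coats type I fibrils, read 6.80, 7.63 and 6.47 in the WT XX pools, 5.90, 5.33 and 5.20 in KO XX, 6.90, 6.89 and 7.08 in WT XY and 5.02, 5.43 and 5.31 in KO XY. All KO arrays lay below all WT arrays, and it fell by 1.70 ± 0.24 in XY, with an adjusted p of 0.000239, and in XX it fell by 1.49 ± 0.24 (adjusted p = 0.000794). This was the largest fall among the collagen genes in both comparisons. It rests on one probe set: the others of the gene had differences over both sexes of -0.24 ± 0.09, 0.01 ± 0.10 and -0.02 ± 0.09, of which none passed, and the mean of all its probe sets fell by 0.46.

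Col16a1 rose by 0.50 ± 0.10 over both sexes and by 0.63 ± 0.14 in XX. Col9a1, a type IX chain, rose by 0.56 ± 0.16 over both sexes and by 0.72 ± 0.23 in XX, where its adjusted p was 0.0494 and was above the threshold under 16 of 21 alternative settings. The call over both sexes was lost without replicate 2 of KO XY (0.51, adjusted p = 0.0510) and with the mean of its probe sets (0.24, adjusted p = 0.129). Its second probe set had a difference of -0.09 ± 0.10. Without replicate 2 of KO XX its XX value was 0.43 (adjusted p = 0.178). Its partner Col9a2 fell by 0.33 ± 0.10 over both sexes, a call that 7 alternatives lost. Col9a3 had a difference of -0.01 ± 0.11.

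Col19a1 fell by 0.46 ± 0.12 over both sexes, at levels under 5.2 in every array, and its XX call was lost under 13 alternatives. The call over both sexes was lost with the mean of its probe sets (-0.17, adjusted p = 0.118) and with the Gapdh covariate (-0.37, adjusted p = 0.0568), and its other probe sets had differences of 0.07 ± 0.10 and -0.14 ± 0.10.

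Col22a1 fell by 0.41 ± 0.12 in XX and had a difference of 0.03 ± 0.12 in XY. The XX call was lost under 5 alternatives, among them the mean of its probe sets (-0.22, adjusted p = 0.181) and leaving out replicate 1 of KO XX (-0.33, adjusted p = 0.119), replicate 2 of KO XX (-0.42, adjusted p = 0.0578) or replicate 2 of WT XX (-0.33, adjusted p = 0.115). Its other probe sets had XX differences of -0.25 ± 0.15 and -0.02 ± 0.16. Col14a1, a fibril-associated collagen of dense connective tissue, spread from 7.84 to 9.59 within KO XX alone, and its difference of 0.23 ± 0.24 did not pass. Col20a1 had a difference of 0.03 ± 0.09.

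Transmembrane collagens pass through the cell membrane. Col13a1, which sits at sites of adhesion, rose by 0.81 ± 0.17 in XY and 0.71 ± 0.17 in XX, and lost its XY call with the Gapdh covariate (0.84, adjusted p = 0.0836). Col23a1 fell by 0.51 ± 0.14 in XY, and by 0.65 with that covariate, where the call was lost (adjusted p = 0.112). The call was also lost without any of 4 single XY arrays (-0.51 to -0.41, adjusted p from 0.0767 to 0.126). Over both sexes it fell by 0.38 ± 0.10, and its other probe sets by 0.97 ± 0.14 and 0.65 ± 0.15. Col17a1, an epithelial anchoring protein, had a difference of 0.14 ± 0.08.

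Col25a1 had a difference of -0.08 ± 0.10 on the probe set used, but a second probe set of it rose by 0.94 ± 0.22 (adjusted p = 0.00807 over all probe sets). The probe sets of this gene therefore disagree.

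Multiplexins are proteoglycan-like collagens of basement membranes. Col15a1 was between 6.89 and 7.22 in the WT arrays and between 6.38 and 6.84 in the KO arrays. It fell by 0.44 ± 0.10 over both sexes (adjusted p = 0.00364) and by 0.46 ± 0.14 in XX, an XX call that 8 alternatives lost, among them the fit without replicate 1 of WT XX (-0.45, adjusted p = 0.0713). Col18a1, the precursor of endostatin, had a difference of -0.10 ± 0.10, while its second probe set fell by 0.39 ± 0.11 (adjusted p = 0.0244). Col7a1, which anchors epithelia to the tissue beneath, had a difference of -0.14 ± 0.10. Col26a1 rose by 0.33 ± 0.11 over both sexes (adjusted p = 0.0371), a call lost under 9 alternatives.

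The 15 collagen genes that passed in none of the 3 KO comparisons had differences over both sexes from -0.14 to 0.23, and 9 of them had a mean under 6. For genes that passed over both sexes and had further probe sets, those further sets can be read as a second measurement on the same arrays. There were 24 of them for 17 genes. Of these, 19 had the same sign and 14 also passed, and none passed in the opposite direction. All 14 were among the 16 with a mean of at least 6. The same tally over all genes is not given here, so these counts have no background. Genes that did not pass over both sexes are outside this tally. Among those, Col6a4, Col18a1 and Col25a1 each had a further probe set that passed.

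Collagen levels did not separate the sexes in the test over all genes. In WT, 0 of 42 collagen genes passed in limma between XY and XX, as did 0.0605% of all genes, and 4 collagen genes had an unadjusted p under 0.05 (Col4a2, Col6a3, Col8a2 and Col27a1), near the 10.4% of all genes that did. In KO, 0 passed, against 0.0330% of all genes, with Col4a6, Col17a1 and Col22a1, 3 genes, at an unadjusted p under 0.05, beside 10.0% of all genes. The difference of the KO effect between the sexes passed for 0, against 0.00550% of all genes, with 4 at an unadjusted p under 0.05 (Col4a6, Col6a3, Col17a1 and Col22a1), beside 6.45% of all genes. The genes in these short lists were named after their values were seen.

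The intervals leave room for differences of moderate size. In WT, Col6a3 was 0.64 ± 0.19 higher in XY, with a 95% interval from 0.23 to 1.04 (adjusted p = 0.459). In KO, Col22a1 was 0.46 ± 0.12 higher in XY, from 0.21 to 0.71 (adjusted p = 0.376). For Col1a1 the WT comparison turned on replicate 1 of WT XX. The XY minus XX difference was -0.65 ± 0.34 with it (adjusted p = 0.510) and -1.23 ± 0.18 without it (adjusted p = 0.00161). Without that array Col4a2 also passed, at 0.52 ± 0.14 (adjusted p = 0.0362) against 0.35 ± 0.16 with it (adjusted p = 0.466).

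Collagen chains need helpers before they can be used. Prolyl and lysyl hydroxylases modify them in the cell, proteases trim their ends outside it, and lysyl oxidases cross-link them. Of 19 genes for folding and chain modification, 10 rose over both sexes and none fell, against 13.4% and 10.3% of all genes. The list median was 0.30, beside -0.01 for all genes. The lysyl hydroxylase gene Plod2 rose by 1.22 ± 0.12 (adjusted p = 3.59e-06), the prolyl 3-hydroxylase gene P3h2 by 0.72 ± 0.10 and the prolyl 4-hydroxylase subunit gene P4ha2 by 0.66 ± 0.10. Plod1 rose by 0.47 ± 0.09. In XY 5 rose, against 6.56% of all genes, and none of the 19 passed with the Gapdh covariate, against 4.29%. In XX 6 rose and 1, Mia3, fell, against 8.30% and 5.40% of all genes.

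Of 11 genes for procollagen cleavage and cross-linking, 4 rose and 1 fell over both sexes, against 13.4% and 10.3% of all genes. The list median was 0.19. Adamts3, which encodes a procollagen N-proteinase, rose by 1.27 ± 0.09 (adjusted p = 1.00e-07), the lysyl oxidase-like gene Loxl1 by 0.68 ± 0.14 and Loxl3 by 0.38 ± 0.09. Lox rose by 0.46 ± 0.12. Pcolce, which encodes an enhancer of C-propeptide removal, fell by 0.42 ± 0.10.

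Among 10 collagen receptors, 3 rose and 2 fell over both sexes, against 13.4% and 10.3% of all genes. The list median was 0.06. Adgrg1, an adhesion receptor that binds type III collagen, fell by 1.47 ± 0.10 (adjusted p = 1.24e-07). Mrc2, which takes up collagen for breakdown, rose by 1.07 ± 0.16, and the discoidin receptor genes Ddr1 and Ddr2 rose by 1.12 ± 0.25 and 0.33 ± 0.08. Gp6, a platelet collagen receptor gene, fell by 0.32 ± 0.09. The integrin genes measured were not among those that passed.

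Partners of the collagens in the matrix rose more often than they fell. Of 20 other basement membrane genes, 10 rose and none fell over both sexes, against 13.4% and 10.3% of all genes. In XY 7 rose and 1 fell, against 6.56% and 6.75% of all genes. The list median was 0.34. Fras1, which encodes a protein that holds epithelial basement membranes to mesenchyme, rose by 1.97 ± 0.11 (adjusted p = 1.85e-08), the nephronectin gene Npnt by 0.87 ± 0.11, the laminin gene Lamb1 by 0.62 ± 0.09 and the agrin gene Agrn by 0.60 ± 0.08. Nid1 and Nid2, whose products link laminin to type IV collagen, rose by 0.61 ± 0.09 and 0.56 ± 0.08 while Col4a1 and Col4a2 fell; these nidogen genes were named after their values were seen.

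Of 26 other genes of fibrils and interstitial matrix, 17 rose and 1 fell over both sexes, against 13.4% and 10.3% of all genes. The list median was 0.52. The periostin gene Postn rose by 1.93 ± 0.11 (adjusted p = 1.95e-08), the versican gene Vcan by 1.51 ± 0.12, the fibromodulin gene Fmod by 1.59 ± 0.13 and the fibrillin gene Fbn2 by 0.92 ± 0.08. The thrombospondin gene Thbs1 fell by 0.67 ± 0.12; it was the one that fell. In XY the Gapdh covariate took the calls from 8 to 2 of the basement membrane genes and from 15 to 9 of the interstitial genes. The share of all genes passing there went from 13.3% to 4.29%.

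**Figure D4:**
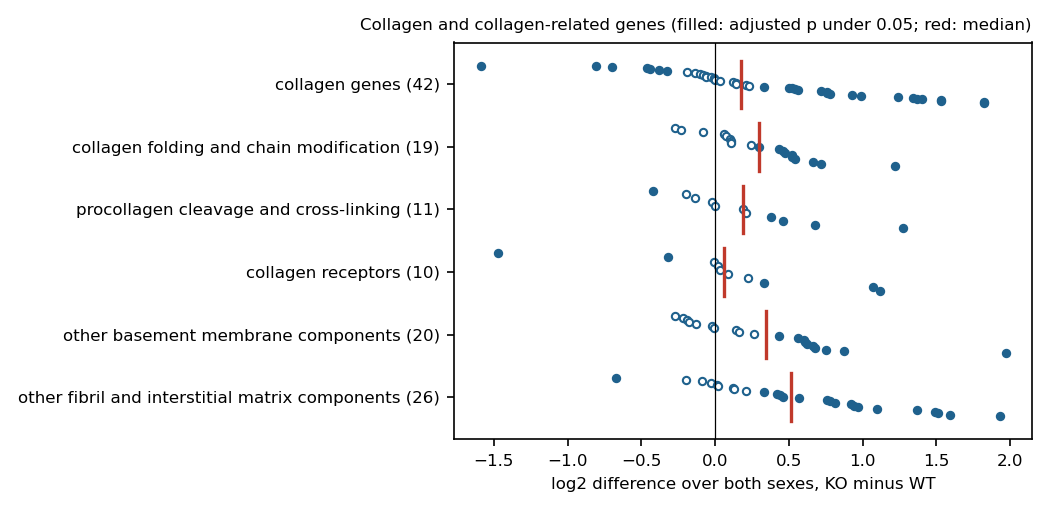
KO minus WT log2 difference over both sexes of the 42 collagen genes and of the genes in 5 lists of collagen-related function, 1 point per gene, with filled points past the threshold and a red line at the median of each list. The median lies above 0 in each list, from 0.06 for the receptors to 0.52 for the other fibril and interstitial genes.

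Markers of the cells that make or border these matrices moved as well. Their counts over both sexes stand beside 13.4% of all genes higher and 10.3% lower. Of 10 markers of mesenchyme and interstitium, 9 rose over both sexes, among them Nr2f2 by 1.30 ± 0.14, Twist1 by 1.12 ± 0.10 and Pdgfra by 0.51 ± 0.07, and Meox1 did not pass. Their mean level was 9.41 to 9.61 in the WT arrays and 10.13 to 10.36 in the KO arrays, with no overlap. Of 12 perivascular and smooth muscle markers, 7 rose, including Kcnj8 by 1.93 ± 0.16 and Pdgfrb by 0.94 ± 0.18, and none fell. Their mean level was 7.15 to 7.44 in WT and 7.63 to 7.95 in KO. In XY 6 markers of each list rose, against 6.56% of all genes. With the Gapdh covariate 3 of each rose, with 4.29% of all genes passing. The part of these shifts in the rise of the fibrillar and type VI genes was not tested.

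Endothelial markers went the way of Col4a1 and Col4a2. Of 13, 11 fell over both sexes and none rose, among them Sox17 by 1.35 ± 0.16, Plvap by 1.16 ± 0.15 and Cdh5 by 1.05 ± 0.19; Pecam1 and Kdr did not pass. Their mean level was 7.61 to 7.93 in WT and 6.65 to 7.52 in KO. In XX 8 fell, and 4 without replicate 1 of WT XX. In XY 10 fell, and 5 with the Gapdh covariate. The share of all genes that fell was 10.3% over both sexes, 5.40% in XX and 6.75% in XY. With the Gapdh covariate 4.29% of all genes passed in XY in either direction. For the fit without replicate 1 of WT XX that share is not given here, so its count has no background. The part of this shift in the fall of Col4a1, Col4a2 and Col15a1 was not tested.

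Other cell types were followed too. Of 10 coelomic epithelium markers 6 rose, Krt19 the most at 2.56 ± 0.10, and 2 fell (Aldh1a1 and Krt8). The largest difference of the list in either direction was that of Aldh1a1, at -4.70. The mean level of the 10 was 7.99 to 8.32 in WT and 8.28 to 8.64 in KO. Of 10 macrophage markers 6 rose, with mean levels of 6.43 to 6.77 in WT and 6.87 to 7.44 in KO. Of 8 mesonephros markers 1 rose (Gata3) and 2 fell (Calb1 and Pax8), with levels of 5.62 to 5.90 and 5.26 to 5.63. Of 9 germ cell markers 4 rose (Ddx4, Kit, Prdm14 and Tfap2c), and of 6 neural markers 1 (Stmn2). For each of these lists, the background over both sexes is 13.4% of all genes higher and 10.3% lower. The neural share that passed, 16.7%, was below the 23.8% of all genes. Over both sexes, none of 7 erythroid markers passed in limma, of which 2 had an unadjusted p under 0.05, a threshold that 34.2% of all genes met. In XY 1 of the 7 fell, against 6.75% of all genes. The part of these lists in the collagen differences was not tested.

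**Figure D5:**
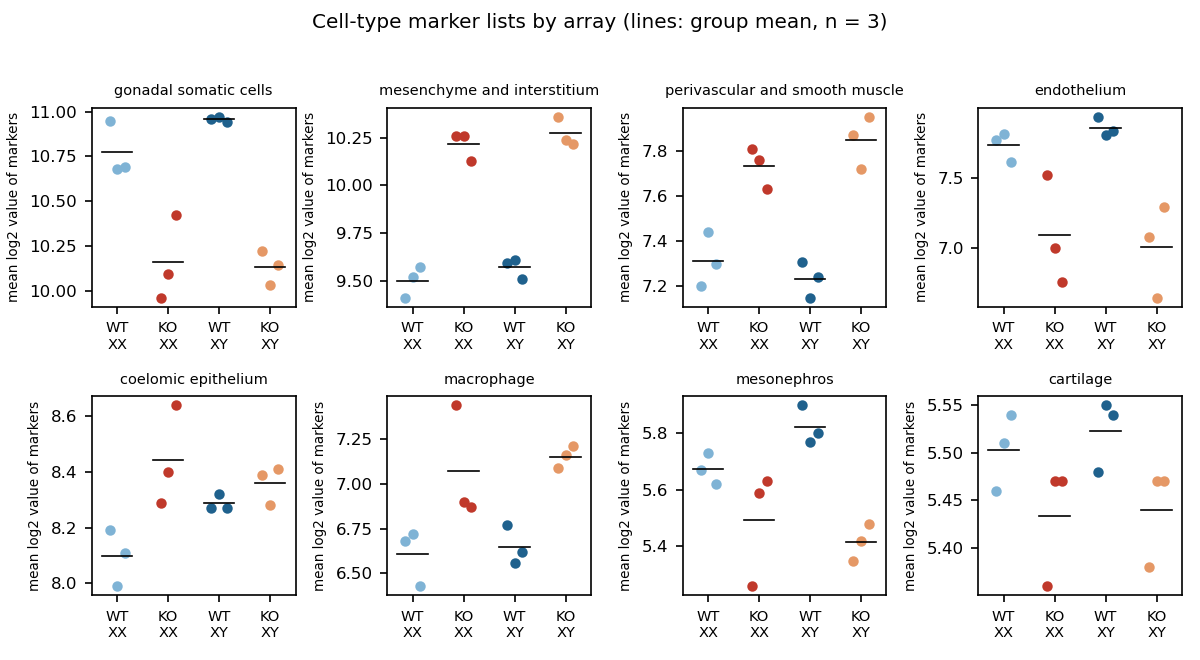
Mean log2 value of 8 cell-type marker lists in each array, by group, with the group mean as a line (n = 3 pools); each panel has its own scale, which does not start at 0. The KO arrays lie above the WT arrays for mesenchyme (10.13 to 10.36 against 9.41 to 9.61) and perivascular markers, and below them for endothelium (6.65 to 7.52 against 7.61 to 7.93) and gonadal somatic cells.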

How the data were processed

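The authors deposited log2 values made with RMA, which corrects background, quantile-normalizes the arrays and summarises each probe set. Per the submitters' processing notes, Affymetrix Expression Console, RMA and affy were used, in versions not given in the sources used here. Per the labels' protocols, each pool gave 15 ng of RNA for an amplification of 2 cycles. Values ran from 2.4 to 15 and were used as deposited; for arrays, their number limits the precision. Of 45101 probe sets, 64 were controls, 34945 had a single gene, 932 several genes and 9160 no gene symbol.

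All genes were fitted with limma 3.58.1 in R 4.3.3 (lmFit and eBayes, 4 group means, 8 residual degrees of freedom). From this, 6 contrasts were drawn: KO minus WT within each sex and averaged over the sexes, XY minus XX within each genotype, and the XY minus XX difference of the KO effect. Adjusted p-values of second probe sets are over all named probe sets. The steps were tested on simulated data. Single values per array were compared by exact permutation tests.

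Array values are given for genes that passed with at least a 2-fold difference in any contrast, and for Col1a1, Col1a2, Col3a1, Col4a1 and Col4a2. The others are given by class, and up to 4 members of each pathway list with the smallest p are named; Lox, Gp6, Mia3, Nid1, Nid2 and Thbs1 were added where a short count or a neighbouring result called for them, after their values were seen. The members and lists were chosen with earlier results of these data known. Same-numbered replicates did not pair, since the correlations of their deviations ran from -0.21 to 0.28. Alternatives were repeated quantile or median scaling, a mean of at least 6, averaged probe sets, a trended robust variance prior and array weights. Further alternatives were a replicate block, fitting only the groups compared, a Gapdh covariate and leaving out each array. A threshold of 0.01 was applied to counts of genes and not to single calls. Counts by class and list were repeated with the Gapdh covariate and without replicate 1 of WT XX, both chosen after seeing the data.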

Additional observations from a re-analysis of the deposited data

How the results depend on the processing

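The number of collagen genes past the threshold between KO and WT was 17 for XY, 22 for XX and 26 for the sexes averaged. With single arrays left out it ran from 15 to 20, from 18 to 21 and from 24 to 26. With the Gapdh covariate, XY gave 9 collagen genes (7 higher, 2 lower) and 4.29% of all genes; KO XY and WT XY do not overlap in that measure, so the covariate and the genotype are hard to separate there. Those 9 were Col3a1, Col4a1, Col4a5, Col4a6, Col5a2, Col6a1, Col6a2, Col8a2 and Col12a1. With the replicate block the counts were 18, 23 and 26, and 0 in the sex comparisons and the interaction, so it moved no count by over 1.5 times. The remaining settings gave 15 to 24 in XY, 16 to 23 in XX and 20 to 26 over both sexes. Shares of all genes are not given here for these settings, for the replicate block or for single arrays left out. Those counts therefore have no background. Between the sexes in WT, array weights gave 1 collagen gene (Col1a1), with 6.55% of all genes, and leaving out single arrays gave from 0 to 2. Without replicate 1 of WT XX, which enters the shared variance, the XY count was 2 for fibril-associated, 2 for short-chain and 1 for multiplexin genes, against 1, 1 and 0 with it. In KO and in the interaction these counts stayed at 0 under every alternative run.

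Of 65 calls of single collagen genes, 47 were kept under every alternative run. Of 1330 alternative values for these calls, 80 lost the call and 0 changed direction. Repeating the quantile normalization moved the share of higher calls among all genes from 60.6% to 51.2% in XX; the collagen count there was 21.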
